A study of Mus musculus with 15 samples.

Results

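The 10 claudin genes described here are Cldn1, Cldn2, Cldn3, Cldn4, Cldn5, Cldn7, Cldn8, Cldn10, Cldn16 and Cldn19, taken by symbol from a table of counts over 46078 genes in mouse podocyte fractions. They were chosen because they mark successive stretches of the nephron and its vessels, and all 10 passed the filter on low counts. Podocyte fractions came from male C57BL/6J mice. Young mice were 4 months old and received no injection. Aged mice were 21 months old and received 12 mg/kg intraperitoneally once a week for 8 weeks, either of the anti-PD-1 antibody RMP1-14 (aPD1ab) or of its isotype control 2A3 (IgG2a). The titles of the aPD1ab samples name 47 days. The labels name no transgene or gene deletion in any group. The renal cortex without medulla was digested, and cells binding nephrin antibodies were retained on a magnetic column. Every fraction was thus a mixture selected by 1 surface protein, and its enrichment was not measured here. The labels list 5 animals per group, and 13 of the 15 columns could be tied to a group by numbers printed in a plot of the study, which gave 5 young, 4 aged IgG2a and 4 aged aPD1ab libraries. Because the young mice were not injected, age and injection of an antibody cannot be told apart in a comparison with young mice.

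Claudins are membrane proteins whose extracellular loops meet those of the neighbouring cell and form the strands of the tight junction, where they set which ions and how much water pass between epithelial cells. Their set changes along the nephron. Claudin-2 forms a cation and water pore in the proximal tubule, and claudin-10 is made as an anion-selective form in the proximal tubule and a cation-selective form in the thick ascending limb. Claudin-16 and claudin-19 act together in the thick ascending limb in the reabsorption of magnesium and calcium, and mutation of either causes renal magnesium wasting in humans. Claudin-3, claudin-4, claudin-7 and claudin-8 belong to the distal nephron and collecting duct, where claudin-4 and claudin-8 take part in chloride passage. Claudin-1 is a marker of the parietal epithelium of Bowman's capsule, and claudin-5 is the main claudin of endothelium and has also been located in podocytes.

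The stretch of 100 bases before the annotated start is shown for the 4 genes that were lower in aged IgG2a than in young libraries, since these members were called in the same direction. Sequences are from RefSeq (GRCm38.p6, the build of the counts) and read 5′ to 3′ on the strand of the gene. Capitals mark matches, on either strand, to a pair of short motifs. The first is TATAAA, the usual letters of a promoter element that positions the polymerase. The other is GGGCGG, a GC-rich element bound by the widely expressed factor Sp1.
Cldn2, chrX:139800708-139800807, plus strand: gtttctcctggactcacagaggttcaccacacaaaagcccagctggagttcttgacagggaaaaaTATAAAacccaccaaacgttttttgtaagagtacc
Cldn10, the second of its starts, chr14:118854850-118854949, plus strand: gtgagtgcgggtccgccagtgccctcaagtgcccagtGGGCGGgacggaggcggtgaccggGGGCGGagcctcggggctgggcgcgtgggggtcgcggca
Cldn1, chr16:26371840-26371939, minus strand: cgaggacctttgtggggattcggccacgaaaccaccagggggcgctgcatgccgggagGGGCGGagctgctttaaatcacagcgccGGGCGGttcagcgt
Cldn5, chr16:18776747-18776846, plus strand: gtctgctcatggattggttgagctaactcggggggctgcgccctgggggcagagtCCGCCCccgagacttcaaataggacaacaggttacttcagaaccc

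The table held 12 such windows for 9 of the 10 claudins and none for Cldn8. GGGCGG was in 7 of the 12, which belong to 6 genes, and in 24.7% of the windows of all 32851 promoters in the table. The 2 windows of Cldn19 overlap and share a match. The first start of Cldn10, not printed above, held neither motif. TATAAA was found only before Cldn2 among these windows and in 5.56% of all windows. These are matches of letters and do not show binding. The 2 starts of Cldn10 give its 2 ion-selective forms, and counts per gene cannot separate them. Cldn1 and Cldn16 are neighbours on chromosome 16 that point away from each other, with starts 91.3 kb apart, and Cldn3 and Cldn4 lie on chromosome 5 with starts 39.3 kb apart. Exons of Cldn19 overlap the antisense gene Gm12927, and those of Cldn3 overlap Wbscr25. The strand setting of the counting is not given in the sources used here, and neither antisense gene exceeded 10 counts in any library.

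Libraries held between 19912969 and 32717100 counts on genes. Levels below are counts scaled by TMM to a common library size (CPM), and 3 counts stood at 0.151 CPM or less. Transcripts of every nephron segment were present in these nephrin-selected fractions. In young libraries the 9 podocyte markers summed to between 1017 and 1582 CPM, the 10 proximal tubule markers to between 5479 and 8820 CPM and the 7 principal cell markers to between 386 and 1035 CPM, and no marker was at 0 in every library. Nphs1, which encodes the nephrin used for selection, had a median of 61.4 CPM in young, 5.84 CPM in aged IgG2a and 29.0 CPM in aged aPD1ab libraries. Aged IgG2a replicate 1 stood apart from the other aged IgG2a libraries, with a chi-square per gene of 259 to 361 against them, where they differed from each other by 43.2 to 117. Pairs of aged aPD1ab libraries differed by 95.4 to 207 and pairs of young libraries by 12.7 to 53.9. The measure rises with depth, and aged IgG2a replicate 1 held the most counts of all libraries. Proximal tubule markers summed to 4141 CPM in aged IgG2a replicate 1 against 796 to 1272 in the other 3 of its group, and macrophage markers to 1686 CPM against 3892 to 5300. Calls that changed without this library are given both ways. Below, "called" refers to edgeR unless another tool is named.

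**Figure D1:**
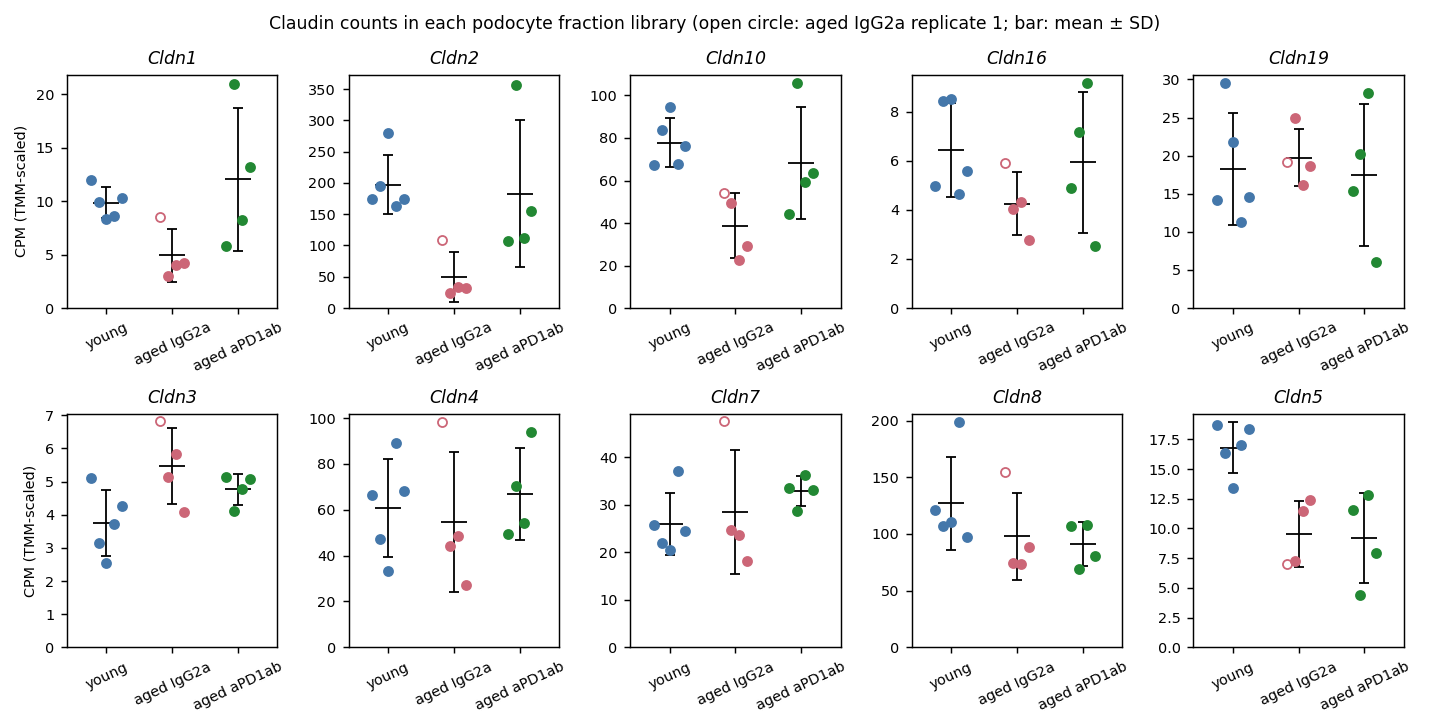
Level of each claudin in every library (vertical axis, CPM from 0), by group. Filled circles are libraries, the open circle is aged IgG2a replicate 1, and bars are the mean ± SD. Cldn5 is lower in all 8 aged libraries than in the 5 young ones, and Cldn2 in aged IgG2a replicate 1 (109 CPM) lies far above the other 3 aged IgG2a libraries (24.3 to 33.8 CPM).

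For the order of the claudins, CPM was divided by the length of the merged exons in kb. In young libraries Cldn2 was the highest, at 59.3 ± 14.2 CPM per kb (SD, n = 5), followed by Cldn8 at 53.9 ± 17.5 CPM per kb, Cldn4 at 33.6 ± 11.8 and Cldn10 at 30.0 ± 4.44. The ranges of neighbours among these 4 overlapped. A gap then separated Cldn10 from Cldn7 at 13.3 ± 3.37 CPM per kb and Cldn5 at 11.85 ± 1.51, and another separated Cldn5 from Cldn16 at 5.49 ± 1.63. Cldn19, Cldn3 and Cldn1 were lower still, down to 2.03 ± 0.301 CPM per kb for Cldn1, with overlapping ranges between neighbours.

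The order of the claudins differed in the aged IgG2a libraries. Cldn8 was first at 41.55 ± 16.4 CPM per kb (SD, n = 4) and Cldn4 second at 30.0 ± 16.8, while Cldn2 came after Cldn10, at 14.9 ± 11.9, with a range that overlapped those of Cldn10 above and Cldn7 below it. Without replicate 1 Cldn2 held 8.95 ± 1.48 CPM per kb (SD, n = 3), after Cldn7 at 11.4 ± 1.78. With aPD1ab Cldn2 had the highest mean at 54.9 ± 35.4 CPM per kb (SD, n = 4) and Cldn8 the next at 38.65 ± 8.17, with overlapping ranges. This place of Cldn2 rested on aPD1ab replicate 2, since Cldn8 was above Cldn2 in replicates 1 and 3 and, without replicate 2, also in the mean, at 41.8 ± 6.46 against 37.5 ± 8.08 CPM per kb (SD, n = 3). Cldn1 was the lowest of the 10 in every group.

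Which claudins differed between aged IgG2a and young mice was asked first. Cldn2, Cldn10, Cldn1 and Cldn5 were lower in aged IgG2a than in young libraries, and no claudin was called higher. These 4 of 10 compare with 8.38% of all 15953 genes tested that were called lower, 9.05% called higher and 17.4% called in either direction (edgeR's quasi-likelihood test, Benjamini-Hochberg adjusted p under 0.05 over all genes). The median log2 fold change was -0.42 over the 10 claudins and 0.04 over all genes. On this scale 7 of the 10 had a fold change below 0. As TPM, in which counts are divided by exon length before scaling, the median gene shifted by -0.64, and all 10 mean levels were below those of young mice, with Cldn19, Cldn3 and Cldn7 changing sign. When aged IgG2a replicate 1 was left out, Cldn16 and Cldn8 also passed, so that 6 of 10 were lower and 0 higher, against 23.5% lower, 22.1% higher and 45.6% in either direction of all 16216 genes. All 6 macrophage markers were called higher in aged IgG2a than in young libraries in both fits, with median log2 fold changes of 1.29 and 1.51. Their sum ranged from 1686 to 5300 CPM in aged IgG2a against 1177 to 2006 CPM in young libraries. For aged aPD1ab vs young 0 of the 6 were called, with a median of 0.24. The part of these markers in the lower claudin levels was not tested.

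Cldn2, the cation and water pore of the proximal tubule (ENSMUSG00000047230, chromosome X, 139800828 to 139811386, GRCm38), was at 174, 196, 279, 164 and 174 CPM in the 5 young libraries. The 4 aged IgG2a libraries held 109, 24.3, 33.8 and 31.2 CPM, all below the lowest young library. The log2 fold change was -1.94 (standard error, SE, 0.42, edgeR adjusted p = 0.0199), or 3.85-fold lower. Leaving out aged IgG2a replicate 1 gave -2.68 (SE 0.21, edgeR adjusted p = 9.9e-06), or 6.39-fold lower.

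Cldn10 (ENSMUSG00000022132, chromosome 14, 118787908 to 118875489) was at 67.2, 83.7, 94.4, 67.6 and 76.3 CPM in young libraries. Aged IgG2a libraries held 54.05, 49.3, 22.5 and 29.0 CPM, again without overlap. Its log2 fold change was -0.94 (SE 0.25, edgeR adjusted p = 0.0316) over all mapped libraries and -1.15 (SE 0.25, edgeR adjusted p = 0.00489) without replicate 1. Beside both genes, 9 of the 10 proximal tubule markers were called lower, with a median log2 fold change of -1.84 (10 of 10 and -2.57 without replicate 1), and their sum ranged from 796 to 4141 CPM in aged IgG2a against 5479 to 8820 CPM in young libraries. None of these markers was at 0 in every library, and their part in the fall of Cldn2 and Cldn10 was not tested. In bulk RNA, fewer cells of a type and less RNA per cell cannot be told apart.

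Cldn1, a marker of the parietal epithelium (ENSMUSG00000022512, chromosome 16, 26356642 to 26371841), was at 12.0, 9.95, 8.37, 8.59 and 10.3 CPM in young libraries. Aged IgG2a libraries held 8.56, 2.985, 3.99 and 4.22 CPM. Replicate 1 lay within the range of the young group and the other 3 lay below it. The log2 fold change was -0.93 (SE 0.27, edgeR adjusted p = 0.0437), and -1.35 (SE 0.18, edgeR adjusted p = 0.000166) without replicate 1. Of 5 other parietal epithelial markers, 0 were called in either direction over all mapped libraries and 2 were called lower without replicate 1, and their sum ranged from 53.5 to 77.6 CPM in aged IgG2a against 70.7 to 83.4 CPM in young libraries. Proximal tubule markers summed to 4141 CPM in aged IgG2a replicate 1 and to 796 to 1272 CPM in the others of that group. In young replicate 3, with the least Cldn1 of its group, they summed to 8820 CPM, the highest young sum. The part of either list in the fall of Cldn1 was not tested.

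Cldn5, the endothelial claudin (ENSMUSG00000041378, chromosome 16, 18776847 to 18778262), was at 18.7, 16.4, 13.4, 17.0 and 18.4 CPM in young libraries. Aged IgG2a libraries held 7.035, 7.28, 11.5 and 12.4 CPM, with replicate 1 the lowest, and did not overlap the young group. The log2 fold change was -0.76 (SE 0.20, edgeR adjusted p = 0.0316), and -0.65 (SE 0.18, edgeR adjusted p = 0.0115) without replicate 1. Of 9 endothelial markers 7 were called lower, 8 without replicate 1, and their sum ranged from 604 to 727 CPM in aged IgG2a against 779 to 1148 CPM in young libraries. The sum of the podocyte markers ranged from 582 to 763 CPM against 1017 to 1582 CPM. None of either list was at 0 in every library, and their part in the fall of Cldn5 was not tested.

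The paracellular partners of the thick ascending limb were not called over all mapped libraries. Cldn16 was at 4.975, 8.46, 8.53, 4.63 and 5.598 CPM in young and 5.92, 4.05, 4.31 and 2.765 CPM in aged IgG2a libraries, with a log2 fold change of -0.53 (SE 0.27, edgeR adjusted p = 0.180). Without replicate 1 the groups did not overlap, and Cldn16 was called lower at -0.73 (edgeR adjusted p = 0.0441). Cldn19, its partner, was at 14.2, 29.5, 21.8, 11.3 and 14.6 CPM in young and 19.2, 24.99, 16.2 and 18.7 CPM in aged IgG2a libraries. All aged values of Cldn19 lay within the young range, and its log2 fold change was 0.18 (SE 0.27, edgeR adjusted p = 0.668). Of the 4 markers of the thick ascending limb, 0 were called over all mapped libraries and 1 was called lower without replicate 1, and their sum ranged from 3230 to 6933 CPM in aged IgG2a against 4053 to 6327 CPM in young libraries.

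By edgeR, claudins of the distal nephron and collecting duct were not called over all mapped libraries. Cldn8, the most abundant of them, was at 121, 107, 110.4, 199 and 97.1 CPM in young and 155, 74.2, 73.9 and 88.5 CPM in aged IgG2a libraries. Replicate 1 lay within the young range and the other 3 lay below it. Its log2 fold change was -0.32 (SE 0.27, edgeR adjusted p = 0.420), and without replicate 1 it was called lower at -0.63 (SE 0.22, edgeR adjusted p = 0.0424). Voom called Cldn8 lower over all mapped libraries, at -0.48 (limma adjusted p = 0.0261). Cldn4 was at 66.6, 47.2, 33.45, 89.2 and 68.3 CPM in young and 98.2, 44.3, 48.4 and 27.1 CPM in aged IgG2a libraries, with a log2 fold change of -0.10 (SE 0.36), or -0.55 (SE 0.32) without replicate 1, not called in either fit. Replicate 1 held more Cldn4 than any young library, and the lowest aged library held less than any.

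Cldn7 was at 25.7, 21.9, 20.6, 37.1 and 24.5 CPM in young and 47.5, 24.6, 23.6 and 18.2 CPM in aged IgG2a libraries. Its log2 fold change of 0.19 (SE 0.27) became -0.17 (SE 0.19) without replicate 1, and neither was called. Cldn3 was at 5.10, 3.145, 2.54, 3.725 and 4.25 CPM in young and 6.83, 5.15, 5.82 and 4.08 CPM in aged IgG2a libraries, with a log2 fold change of 0.61 (SE 0.22, edgeR adjusted p = 0.0821). It had the highest fold change of the 10 claudins with and without replicate 1. Of 7 principal cell markers 1 was called higher and 0 lower, and 0 were called without replicate 1, where 3 of 5 distal convoluted tubule markers (median log2 fold change -1.03) and 3 of 6 intercalated cell markers (median -0.71) were called lower. Over all mapped libraries 0 and 1 of these were called lower. The part of these lists in the levels of Cldn3, Cldn4, Cldn7 and Cldn8 was not tested. The sum of the principal cell markers ranged from 491 to 982 CPM in aged IgG2a against 386 to 1035 CPM in young libraries.

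The calls for IgG2a vs young rested on few libraries. Each of the 9 libraries was left out in turn, and Cldn2 was called in 5 of the 9 fits, Cldn5 in 2 (without aged IgG2a replicate 1 or 4), and Cldn10 and Cldn1 in 1 each (without aged IgG2a replicate 1). Cldn2 lost its call without young replicate 3 or aged IgG2a replicate 2, 3 or 4, with a highest edgeR adjusted p of 0.0664. The highest edgeR adjusted p was 0.0828 for Cldn10, 0.122 for Cldn1 and 0.0947 for Cldn5. The log2 fold change stayed below 0 in every one of these fits, between -2.68 and -1.72 for Cldn2, -1.15 and -0.76 for Cldn10, -1.35 and -0.75 for Cldn1, and -0.92 and -0.65 for Cldn5.

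**Figure D2:**
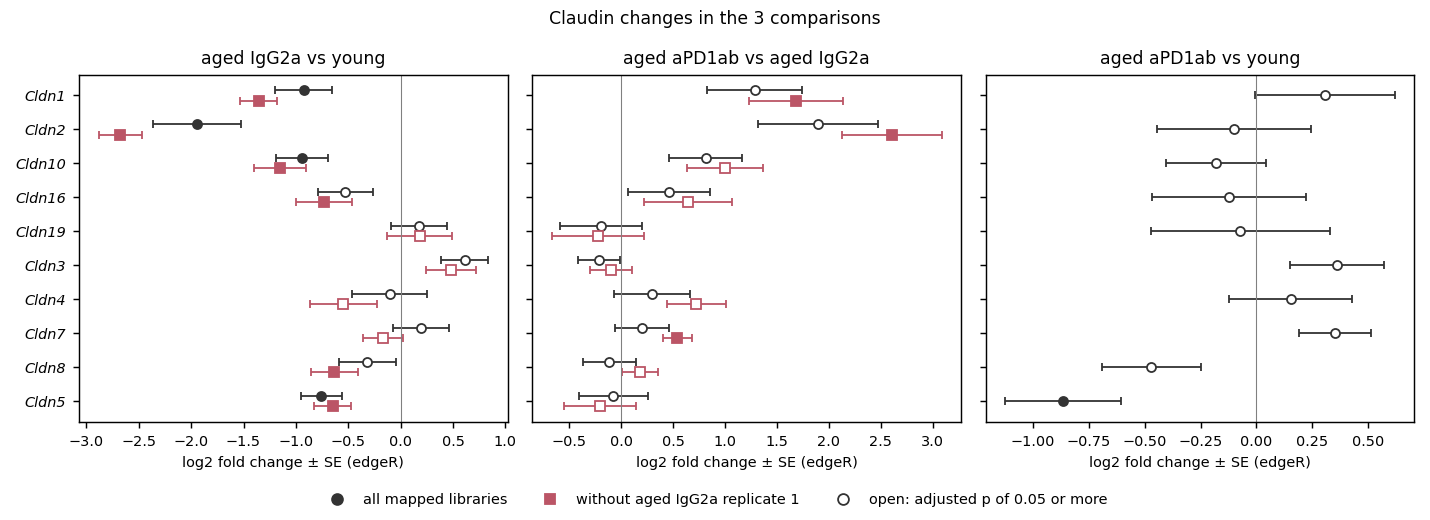
Log2 fold change ± standard error (edgeR, horizontal axis) of each claudin in the 3 comparisons. Circles are fits of all mapped libraries, squares are fits without aged IgG2a replicate 1, and filled symbols passed an adjusted p of 0.05. Cldn2 lies farthest from 0 in the 2 comparisons with aged IgG2a, at -1.94 and 1.90, and near 0 (-0.10) for aged aPD1ab vs young.

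The effect of the antibody was asked by comparing aged aPD1ab with aged IgG2a libraries. Over all mapped libraries 0 of the 10 claudins were called, as were 0% of all 15530 genes, although before adjustment 4341 had a p under 0.05 by edgeR. On the same libraries, DESeq2, run without the filter on low counts, called 2087 genes and 2 of the 10 claudins. The number of genes it tested is not reported here, so these counts cannot be compared as shares. Voom (limma, with weights per library) called 6177 of the 15530 genes and 4 of the 10 claudins, shares close to each other. The median log2 fold change was 0.25 over the claudins and -0.01 over all genes. With aged IgG2a replicate 1 left out, Cldn2, Cldn1 and Cldn7 were called higher with aPD1ab, 3 of 10 against 17.1% of all 15770 genes called higher, 13.2% called lower and 30.4% called in either direction. In that fit all 6 macrophage markers were called lower, with a median log2 fold change of -1.24, where 0 were called over all mapped libraries (median -0.98), and their part in the claudin levels was not tested. The aged IgG2a libraries are shared with the comparison of aged IgG2a with young mice, so that a low level in them moves both.

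Cldn2 was at 107, 356, 111.5 and 156 CPM in the 4 aged aPD1ab libraries. Of these, 3 lay above all aged IgG2a libraries and 1 lay below replicate 1, and aPD1ab replicate 2 was the highest of all 13 libraries. The log2 fold change against IgG2a was 1.90 (SE 0.58, edgeR adjusted p = 0.112), or 3.73-fold, and 2.61 (SE 0.48, edgeR adjusted p = 0.00914), or 6.10-fold, without replicate 1. Over all mapped libraries Cldn2 was called higher by DESeq2 (DESeq2 adjusted p = 0.0114) and by voom (limma adjusted p = 0.00258). In 1 edgeR fit of 3 groups it was also called (edgeR adjusted p = 0.0268), but not without the filter on low counts (edgeR adjusted p = 0.171). The 10 proximal tubule markers summed to between 4225 and 12700 CPM with aPD1ab, and the highest sum was again in replicate 2. Called higher were 0 of the 10 over all mapped libraries and 10 of 10 without aged IgG2a replicate 1, with median log2 fold changes of 1.82 and 2.61. Their part in the difference of Cldn2 was not tested.

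Cldn1 was at 5.76, 20.9, 8.22 and 13.2 CPM with aPD1ab, and these values spanned more than the young range on both sides. Its log2 fold change was 1.29 (SE 0.46, edgeR adjusted p = 0.129) over all mapped libraries and 1.69 (SE 0.45, edgeR adjusted p = 0.0269) without aged IgG2a replicate 1. Over all mapped libraries Cldn1 was called higher by DESeq2 (DESeq2 adjusted p = 0.0464) and by voom (limma adjusted p = 0.0115). In 1 edgeR fit of 3 groups it was also called (edgeR adjusted p = 0.0394), but not without the filter on low counts (edgeR adjusted p = 0.186). Parietal epithelial markers summed to between 61.3 and 125 CPM with aPD1ab, and 2 of 5 were called higher without aged IgG2a replicate 1. Proximal tubule markers summed to 4281, 12700, 4225 and 6853 CPM in the 4 aPD1ab libraries, in the same order. The part of either list in the difference of Cldn1 was not tested. Cldn7 was at 33.5, 28.7, 36.2 and 33.1 CPM with aPD1ab, the narrowest range of its 3 groups. Its log2 fold change was 0.20 (SE 0.26, edgeR adjusted p = 0.647). Voom called Cldn7 higher over all mapped libraries, at 0.48 (limma adjusted p = 0.0306). Without aged IgG2a replicate 1 the edgeR value was 0.54 (SE 0.14, edgeR adjusted p = 0.0238), and all 4 aPD1ab libraries lay above the 3 IgG2a libraries. The 7 principal cell markers summed to between 655 and 1050 CPM with aPD1ab. Their sum was 491 to 622 CPM in these 3 IgG2a libraries and 982 CPM in aged IgG2a replicate 1. Of the 7, 0 were called over all mapped libraries and 1 was called higher without that replicate. Their part in the differences of Cldn7 and Cldn4 was not tested.

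Other claudins were not called between the aged groups by edgeR in the fits of these groups alone. Cldn10 was at 44.4, 106, 59.3 and 63.3 CPM with aPD1ab, with 3 of the 4 libraries above all aged IgG2a libraries and a log2 fold change of 0.81 (SE 0.35, edgeR adjusted p = 0.171), or 1.00 (SE 0.37, edgeR adjusted p = 0.0731) without aged IgG2a replicate 1. Cldn10 was called higher by voom over all mapped libraries, at 0.90 (limma adjusted p = 0.0449), and by 1 edgeR fit of 3 groups without that library, at 1.02 (edgeR adjusted p = 0.0179). Cldn4 was at 49.4, 70.2, 54.4 and 94.05 CPM, all above the 3 aged IgG2a libraries other than replicate 1, and its log2 fold change was 0.30 (SE 0.37), or without that library 0.72 (edgeR adjusted p = 0.0865). Cldn16 was at 4.88, 7.165, 9.19 and 2.53 CPM and Cldn19 at 15.4, 20.15, 28.25 and 6.04 CPM, with replicate 4 the lowest and replicate 3 the highest for both. The log2 fold change of Cldn16 was 0.46 (SE 0.39), or 0.64 (SE 0.42) without aged IgG2a replicate 1, and that of Cldn19 was -0.20 (SE 0.39), or -0.23 (SE 0.44). Cldn3 was at 5.12, 4.11, 4.76 and 5.09 CPM, within the aged IgG2a range, with a log2 fold change of -0.21 (SE 0.20), or -0.10 (SE 0.20) without that library. Cldn8 was at 107, 69.0, 108 and 80.8 CPM and its log2 fold change changed sign from -0.11 (SE 0.26) to 0.18 (SE 0.17) without aged IgG2a replicate 1. As TPM, where the median gene shifted by 0.41, the mean levels of Cldn19, Cldn3, Cldn8 and Cldn5 were above those of IgG2a and not below.

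Between aged aPD1ab and young libraries Cldn5 alone was called, 1 of 10 lower against 9.97% of all 15986 genes called lower, 12.4% called higher and 22.4% called in either direction. Cldn5 was at 11.5, 4.44, 12.8 and 7.955 CPM with aPD1ab, all below the lowest young library, with a log2 fold change of -0.86 (SE 0.26, edgeR adjusted p = 0.0370). It was called in 4 of the 9 fits that left out a library and lost its call without young replicate 1, 2, 4 or 5 or aPD1ab replicate 4, with a highest edgeR adjusted p of 0.0926. Endothelial markers summed to between 377 and 994 CPM with aPD1ab, where 3 of 9 were called lower, and podocyte markers to between 337 and 940 CPM. Replicate 2, with the least Cldn5, was the lowest for both sums and the highest for proximal tubule markers.

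Cldn2 differed from young by a log2 fold change of -0.10 (SE 0.35, edgeR adjusted p = 0.858) with aPD1ab, Cldn10 by -0.18 (SE 0.22) and Cldn1 by 0.31 (SE 0.31). For Cldn2 and Cldn10, 3 of the 4 aPD1ab libraries lay below the young range and replicate 2 lay above it. Without replicate 2, Cldn2 was called lower than in young mice at -0.65 (edgeR adjusted p = 0.0436) and Cldn10 at -0.47 (edgeR adjusted p = 0.0490). Cldn8 had a log2 fold change of -0.47 (SE 0.22, edgeR adjusted p = 0.154) and Cldn7 of 0.35 (SE 0.16, edgeR adjusted p = 0.143), and the latter was called higher without young replicate 4, at an edgeR adjusted p of 0.0192. Over the 10 claudins the median log2 fold change was -0.09, against 0.02 over all genes.

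**Figure D3:**
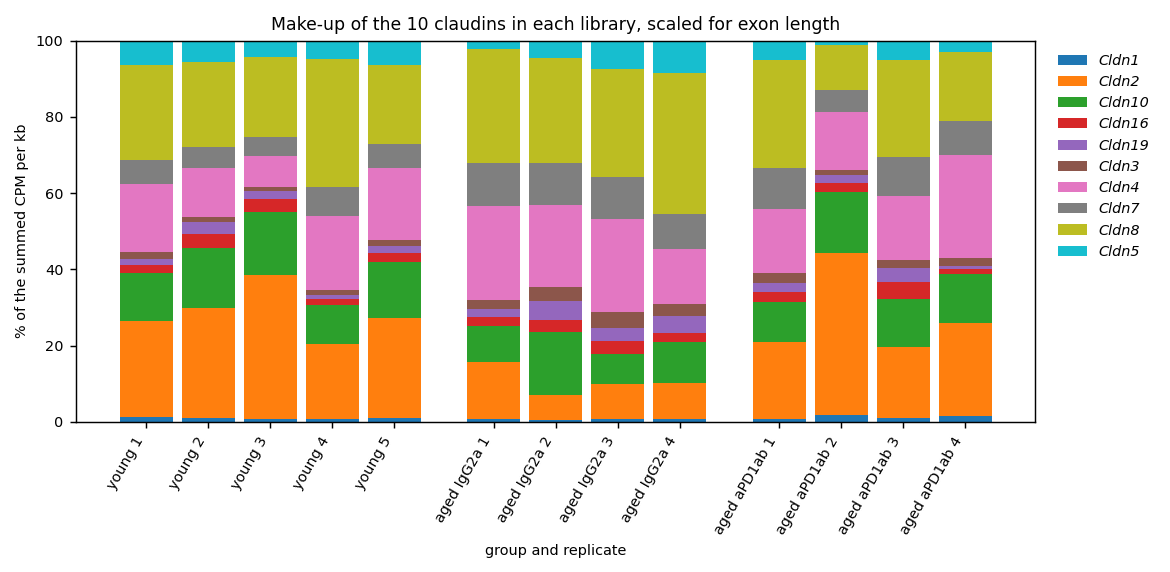
Share of each claudin in the summed CPM per kb of the 10 claudins (vertical axis, percent) in each of the 13 libraries. Cldn2 made up 6.41% to 14.9% in aged IgG2a libraries, 19.6% to 37.9% in young libraries and 18.7% to 42.5% in aged aPD1ab libraries.

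The make-up of the claudins was described as shares of their summed CPM per kb, which do not depend on the scaling of the libraries. The sum itself was 217 ± 21.0 CPM per kb in young (SD, n = 5), 136 ± 55.6 in aged IgG2a (SD, n = 4), or 109 ± 6.13 without replicate 1 (SD, n = 3), and 196 ± 39.7 in aged aPD1ab libraries (SD, n = 4). Cldn2 and Cldn10 together made up 30.0% to 54.3% in young, 17.1% to 24.4% in aged IgG2a and 30.8% to 58.7% in aged aPD1ab libraries. Aged IgG2a replicate 1, at 24.4%, was the highest of its group and still below all libraries of the other groups. Cldn3, Cldn4, Cldn7 and Cldn8 together made up 63.7% to 68.2% in aged IgG2a, above the 35.1% to 61.9% of young and the 34.1% to 58.5% of aPD1ab libraries. Cldn16 and Cldn19 together held a mean of 4.58% in young, 6.48% in aged IgG2a and 4.77% in aPD1ab libraries, with overlapping ranges.

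Cldn3 had a share of 2.47% to 4.20% in aged IgG2a libraries and 0.910% to 1.96% in young libraries, without overlap, although its CPM was not called. Cldn7 had 9.15% to 11.1% in aged IgG2a libraries and 4.76% to 7.58% in young libraries, also without overlap. Shares of 1 sum move against each other, so that a smaller share of Cldn2 can by itself raise other shares. Not all rose. The mean share of Cldn10 was 14.0% in young and 11.3% in aged IgG2a libraries, and that of Cldn1 was 0.951% and 0.737%, with overlapping ranges.

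**Figure D4:**
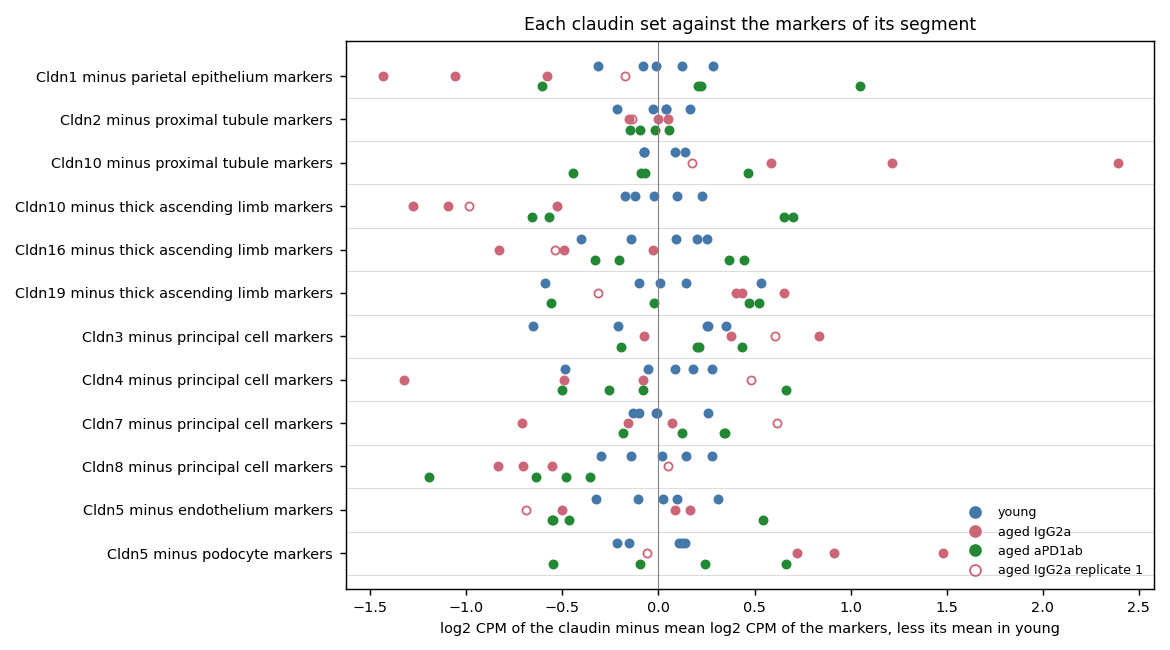
Log2 CPM of each claudin minus the mean log2 CPM of the markers of its segment, less the mean of that difference in young libraries (horizontal axis), with 1 point per library. Cldn2 stays within a narrow band in all 3 groups, while Cldn10 spreads in aged IgG2a libraries and Cldn8 lies below the young range in 7 of the 8 aged libraries.

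Each claudin was also set against the markers of its own segment, as log2 CPM of the claudin minus the mean log2 CPM of the marker list. This difference is a description without a test. For Cldn2 and the proximal tubule markers it was -1.14 ± 0.14 in young (SD, n = 5), -1.21 ± 0.10 in aged IgG2a (SD, n = 4) and -1.20 ± 0.09 in aged aPD1ab libraries (SD, n = 4). All 13 libraries lay between -1.36 and -0.98, although Cldn2 itself ranged from 24.3 to 356 CPM. Cldn10 did not stay at 1 distance from the same markers. It ranged from -2.54 to -2.33 in young and from -2.29 in replicate 1 to -0.08 in aged IgG2a libraries. Against the thick ascending limb markers Cldn10 went the other way, from -2.78 to -2.38 in young to -3.88 to -3.13 in aged IgG2a libraries. For both lists the young and aged IgG2a values did not overlap, and Cldn10 is made in both segments. With aPD1ab Cldn10 ranged from -2.91 to -2.0 against the proximal tubule markers and from -3.26 to -1.9 against the thick ascending limb markers. Both of these ranges overlapped those of young libraries.

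Cldn1 lay between -0.12 and 0.48 against the parietal epithelial markers in young libraries. Aged IgG2a replicate 1 was at 0.02 and the other 3 of that group held -1.24 to -0.39, below the young range. With aPD1ab Cldn1 ranged from -0.41 to 1.24, on both sides of the young range. Cldn8 lay between 1.28 and 1.86 against the principal cell markers in young libraries, at 1.64 in aged IgG2a replicate 1, between 0.75 and 1.03 in the other 3, and between 0.39 and 1.23 with aPD1ab. Cldn3, Cldn4 and Cldn7 against the same markers, and Cldn16 and Cldn19 against those of the thick ascending limb, had overlapping ranges in young and aged groups.

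Cldn5 against the endothelial markers ranged from -2.85 to -2.21 in young, -3.21 to -2.36 in aged IgG2a and -3.08 to -1.98 in aPD1ab libraries. Against the podocyte markers, a comparison added after its levels were seen, it ranged from -2.69 to -2.34 in young libraries. There, aged IgG2a replicate 1 was at -2.54 and the other 3 lay between -1.75 and -0.99, above the young range. With aPD1ab Cldn5 ranged from -3.02 to -1.81 against the podocyte markers, on both sides of the young range.

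Of 25 other genes whose symbol is Cldn and a number, 5 passed the filter over the 13 libraries. Cldn12, found in the proximal tubule and linked there to calcium passage, was at 42.1 ± 4.21 CPM in young (SD, n = 5), 23.4 ± 12.3 in aged IgG2a (SD, n = 4) and 41.0 ± 13.2 CPM in aged aPD1ab libraries (SD, n = 4). Its log2 fold change was -0.79 (edgeR adjusted p = 0.0612) for IgG2a vs young and 0.81 (edgeR adjusted p = 0.179) for aPD1ab vs IgG2a. Without aged IgG2a replicate 1 these were -1.23 (edgeR adjusted p = 1.12e-05) and 1.23 (edgeR adjusted p = 0.0146). Cldn15 was at 11.3 ± 1.97 CPM in young libraries and was not called in any comparison. Cldn6, Cldn34c1 and Cldn9 had group means of at most 1.17, 0.737 and 0.448 CPM, and none was called where it was tested.

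Genes of other junction proteins, among them scaffolds, adhesion molecules and polarity proteins, were taken from lists of 25 tight junction genes, all of which were tested. For IgG2a vs young 7 were called lower and 0 higher, with a median log2 fold change of -0.34, against 8.38% of all genes called lower and a median of 0.04. Among the cytoplasmic scaffolds, Mpp5 (Pals1, of the Crumbs complex) changed by -1.06 (edgeR adjusted p = 0.00476), Magi2 by -1.29, Tjp1, which encodes ZO-1 and anchors claudins to actin, by -0.76, and the cingulin relative Cgnl1 by -0.73. Ildr2, of the family that recruits tricellulin to corners where 3 cells meet, changed by -1.99 (edgeR adjusted p = 0.0148), and the junctional adhesion molecules Jam2 and Esam by -0.56 and -0.34. Without aged IgG2a replicate 1, 20 of 25 were called lower, among them Patj at -0.996, Marveld3 at -1.15 and Pard3 at -0.88, against 23.5% of all genes. In that fit 10 of 10 proximal tubule, 8 of 9 endothelial and 7 of 9 podocyte markers were called lower. Called higher were 1 podocyte marker and 6 of 6 macrophage markers. Of 7 principal cell markers 0 were called, and of 4 thick ascending limb markers 1 was called lower. The part of these lists in the levels of the junction genes was not tested.

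For aPD1ab vs IgG2a 0 of the 25 were called over all mapped libraries, with a lowest edgeR adjusted p of 0.109. Without aged IgG2a replicate 1, 11 were called higher and 1 lower, against 17.1% and 13.2% of all genes. Called higher were the polarity genes Crb3 at 1.06 (edgeR adjusted p = 0.00640) and Pard6b at 0.71, and Ildr2 at 2.47. Cgnl1 rose by 0.98, Magi2 by 1.22, Patj by 0.79, Magi1 by 0.47 and Marveld3 by 1.16 on the log2 scale. Jam2 was lower at -1.24 (edgeR adjusted p = 0.00777). In that fit 10 of 10 proximal tubule markers were called higher, 6 of 6 macrophage markers lower and 0 of 9 endothelial markers in either direction. Of 9 podocyte markers 4 were called higher and 1 lower. The part of these lists in the junction genes was not tested. Against young mice, aPD1ab libraries had 4 of the 25 called lower, Jam2 at -1.72, Tjp1 at -0.96, Mpp5 at -0.70 and Magi3 at -0.51, and 1 called higher, Crb3 at 0.51. These 5 of 25 stood near the 22.4% of all genes called in either direction.

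Of 7 regulators linked to claudin genes, 2 were called lower for IgG2a vs young and 0 higher, against 8.38% and 9.05% of all genes, among them the transcription factor gene Hnf4a at -1.62 (edgeR adjusted p = 0.0422). Without aged IgG2a replicate 1, 4 were called lower, against 23.5% of all genes. In the fit of aPD1ab vs IgG2a without it, 4 were called higher, against 17.1% of all genes, among them Hnf4a at 2.815 and the kinase gene Wnk4 at 0.53, the latter named after its value was seen. Casr, the calcium-sensing receptor of the thick ascending limb, was lower with aPD1ab than in young libraries, at -0.93 (edgeR adjusted p = 0.00954). Hnf4a is itself expressed in the proximal tubule, whose markers moved with it, and the part of those markers was not tested.

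The genes nearest to each claudin were found over the 13 libraries as those with the smallest root mean square difference of mean-centred log2 CPM, among 14056 genes of at least 1 CPM. Nearest to Cldn2 were Fam151a, Dnajc22, Cyp2j5, Galnt14 and Slc47a1, with differences of 0.13 to 0.15 where Cldn2 had an SD of 1.22. Cldn8, with an SD of 0.44, lay nearest to Mecom, Thap2, Sim1, Atp6v1b1 and Cdh1, at 0.13 to 0.15. Cldn7 had Sdc4, Gata3, Cabcoco1 and Tuba1c among its nearest genes, and Cldn4 lay nearest to Sfn, Bhlhe40, Rnd3, Dnajb4 and Spry1. Cldn1 lay nearest to Mettl7a1, Cat, Acot6, Sephs2 and Acbd4, and Cldn5 to Reck, Golim4, Tspan2, Notch4 and Rhoj.

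Cldn10 lay nearest to Slc39a8, Ttc41, Zfp750, Lrpap1 and Fuca2. Cldn19 lay nearest to Elfn1, Pla1a, Wnt7b, Tmem207 and Egfl6. The nearest genes of Cldn16 (Ly6a, Ror2, Irx2, Ppp1r1b and Bbs10) differed by 0.31 or more, the farthest of any member. No claudin was among the 5 nearest genes of another. In the 12 libraries other than aged IgG2a replicate 1, 31 of the 50 nearest genes were found again, 4 of 5 for Cldn2, Cldn4, Cldn8, Cldn16 and Cldn19, and 0 of 5 for Cldn3, whose nearest genes over all libraries included Homer3, Nrbf2, Dusp10 and Bcl2l12.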

How the data were processed

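The authors sequenced RNA of podocyte fractions and deposited raw read counts, 1 row for every Ensembl gene ID, not normalized. The submitters' processing notes name HISAT2 and featureCounts, without versions, and build GRCm38. Symbols, positions and exon lengths were taken from GENCODE M21 (GRCm38), which matched 45229 of 46078 gene IDs. The labels give groups of samples, and the number printed beside each point of a plot of the study ties 13 columns to them. The 2 other columns were not used. The labels name no batch. Libraries are numbered in the order of their columns within a group.

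The analysis ran in R 4.3.3. Pairs of groups were compared in edgeR 4.0.16 (quasi-likelihood, robust, TMM, genes kept by filterByExpr), and calls were made at a Benjamini-Hochberg adjusted p under 0.05 over all genes tested. Log2 CPM used a prior count of 2. The fit was tested on simulated data. DESeq2 1.42.0, limma 3.58.1 with voom, other normalizations, no filter, 1 fit of 3 groups, a 2-fold threshold, TPM and each library left out were alternatives, and a fit of 3 groups without aged IgG2a replicate 1, and the order of levels without that library or aPD1ab replicate 2, were added after seeing the data. Totals and floors cover counting error only.

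The 10 members, the gene lists and the library left out were chosen with earlier results of these data known. Named were all members, up to 12 listed junction or regulator genes per comparison past the threshold with or without aged IgG2a replicate 1, other claudins that passed the filter, and 5 nearest genes per member. Protein sequences were not used here, and some listed or nearest genes are not reported here.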

Additional observations from a re-analysis of the deposited data

Results flagged for a closer look

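Dixon's test for a single library far from the rest of its group was applied to the 10 claudins in 3 groups, 30 tests in all, of which chance alone picks about 1 in 20. It picked 3 libraries. Cldn2 in aged IgG2a replicate 1 stood at 108.8 CPM, with a gap to the next library of 0.888 of the range of the group, and this is the library that also stood apart over all genes. Cldn2 in young replicate 3 stood at 279.2 CPM with a gap of 0.724 of the range, in the young library with the highest sum of proximal tubule markers (8820 CPM). Cldn8 in young replicate 4 stood at 198.9 CPM with a gap of 0.766 of the range, in the young library with the highest sum of principal cell markers (1035 CPM).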

How the results depend on the processing

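Leaving out each library in turn gave 0 to 6 claudins called for IgG2a vs young (553 to 7397 genes), 0 to 3 for aPD1ab vs IgG2a (0 to 4788 genes, with any gene called only without aged IgG2a replicate 1) and 0 to 3 for aPD1ab vs young (2369 to 3868 genes). For IgG2a vs young, 4 claudins and 2780 genes became 1 and 1353 with a 2-fold threshold. The claudins called became 2 in 1 fit of 3 groups, the genes 4253 by DESeq2, 7447 by voom and 6417 in the fit of 3 groups without aged IgG2a replicate 1. For aPD1ab vs IgG2a, 0 claudins and 0 genes became 2 and 2087 by DESeq2, 2 and 2863 in the fit of 3 groups, 4 and 6177 by voom, and 4 and 6475 in the fit of 3 groups without that library. For aPD1ab vs young, 1 claudin and 3578 genes became 0 and 766 with a 2-fold threshold. By voom 2 of the 10 claudins passed, beside 3992 of the 15986 genes. Nearest genes in common fell from 50 to 31 without aged IgG2a replicate 1. TPM shifted the median gene and moved the log2 ratio of mean levels for IgG2a vs young to -1.52 for Cldn1, -1.525 for Cldn10, -1.135 for Cldn16, -0.50 for Cldn19, -0.031 for Cldn3, -0.38 for Cldn7, -0.94 for Cldn8 and -1.53 for Cldn5, and for aPD1ab vs IgG2a to 0.17 for Cldn3. For IgG2a vs young, Cldn4 ranged from -0.55 to 0.10 and Cldn7 from -0.17 to 0.36 over the libraries left out, and Cldn7 was -0.23 in the fit of 3 groups without aged IgG2a replicate 1. For aPD1ab vs IgG2a, Cldn19 ranged from -0.52 to 0.091, Cldn8 from -0.24 to 0.18 and Cldn5 from -0.27 to 0.15, Cldn16 was -0.093 by voom, and Cldn8 was 0.15 by voom and 0.21 in the fit of 3 groups without that library. For aPD1ab vs young, Cldn1 ranged from -0.10 to 0.53, Cldn2 from -0.65 to 0.079, Cldn16 from -0.41 to 0.14, Cldn19 from -0.40 to 0.22 and Cldn4 from -0.060 to 0.32. Of 150, 140 and 150 alternative values in the 3 comparisons, 112, 117 and 130 kept direction and side of the threshold. Apart from the scaling and the libraries left out, the cause of these changes was not tested. The fewest counts of a claudin in a library were 40 for Cldn16 and 59 for Cldn3, so that counting error is part of the spread of these. By voom 5 of the 10 claudins were called for IgG2a vs young, beside 7447 of the 15953 genes.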
